A study of Mus musculus with 6 samples.

Results

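Transcript levels of 36 lysosomal genes were examined in RAW 264.7 cells, a virus-transformed mouse macrophage line, kept for 3 days on zinc-based implant metals under a calcium phosphate (CaP) coating. The genes were taken by symbol from a written list of proton pump subunits, lysosomal membrane proteins, hydrolases and their regulators, with the condition of at least 10 counts summed over the 6 libraries. All 36 listed genes met it, out of 54532 genes in the deposited count table, and all 36 were among the 13156 genes that passed the filter on low counts and were tested. They comprise 15 pump subunits (5 of the V0 sector, 8 of the V1 sector and 2 accessory subunits), 5 other membrane proteins, 11 hydrolases, 3 helper proteins of the lumen, the regulator gene Tfeb and the ion channel gene Mcoln1. No allele or further agent is named for any group. CaP Zn had no addition named, CaP Zn0.8Mn had manganese and CaP Zn0.8Mn0.1Li had manganese and lithium, so that every group shared the coating and the zinc. Each group had 2 libraries of polyadenylated RNA. The labels do not say that these came from separate cultures, and p-values therefore measure no more than the spread of these libraries, possibly a technical one. The labels do not give the unit of the numbers in the alloy names, and cells on another surface were not analysed here.

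Lysosomes digest material that macrophages take up. Their interior is kept acid by the vacuolar proton pump, in which the V1 sector on the cytosolic side splits ATP and the V0 sector in the membrane carries protons inward. Acid hydrolases then break down glycogen, glycolipids, glycoproteins, lipids and proteins, and helper proteins such as saposins present lipids to them. Osteoclasts, which RAW 264.7 cells can form, place the same pump on the membrane that faces bone. The transcription factor TFEB and its relatives bind a short palindromic sequence, the CLEAR element, whose core is the E-box CACGTG, in the promoters of many lysosomal genes.

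The core of that element was looked for in the promoter windows of RefSeq (build GRCm38.p6, 250 bases before to 50 bases after a start site, 300 bases in all), which hold 31 of the 36 genes. Atp6v1b2, Atp6v1c1, Atp6v1g1, Atp6v1h and Npc1 had no entry. CACGTG, a palindrome that reads the same on both strands, lay in a window of 10 of the 31 genes (32.3%), against 7.15% of all 32851 windows and 12.1% of the 9146 tested genes with a window. The longer form TCACGTGA, which contains it, lay in 5 of 31 (16.1%), against 0.974% of windows and 2.23% of tested genes. A still longer palindrome, with G before and C after that form, lay in 0 of 31 (0%). Its share was 0.326% of windows and 0.853% of tested genes. At a share this low, 0 among 31 genes cannot show that the members hold it less often. A match describes letters in a window and is not a measured binding site, and no match says only that these letters are not in that window. The 30-base stretches that follow are shown because these genes recur in the results, as the most abundant membrane protein gene (Lamp1), the channel gene (Mcoln1), pump subunit genes (Atp6v0b, Atp6v0d1, Atp6v0e) and the gene that deviated upward most in a single library (Naglu). They run 5′ to 3′ on the strand of the gene with CACGTG in capitals, and positions count from the start site. Those of Lamp1 lie at chr8:13159088-13159117 and chr8:13159134-13159163 (plus strand), the outer pair of 4 matches in that window. Those of Mcoln1 lie at chr8:3500436-3500465 and chr8:3500462-3500491 (plus strand). Those of Atp6v0b lie at chr4:117887348-117887377 and chr4:117887330-117887359 (minus strand). Single matches lie at chr8:105566050-105566079 for Atp6v0d1 (minus strand), chr17:26676387-26676416 for Atp6v0e (plus strand) and chr11:101070009-101070038 for Naglu (plus strand).
Lamp1 at -61: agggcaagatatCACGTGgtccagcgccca
Lamp1 at -15: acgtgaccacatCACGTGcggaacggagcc
Mcoln1 at -71: ggtcgcgcttgtCACGTGttcagttcaggc
Mcoln1 at -45: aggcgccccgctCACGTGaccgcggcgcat
Atp6v0b at -36: gtgcgcgggggtCACGTGgggtcggcgcat
Atp6v0b at -18: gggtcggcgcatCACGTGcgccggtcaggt
Atp6v0d1 at -3: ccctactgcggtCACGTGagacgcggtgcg
Atp6v0e at 4: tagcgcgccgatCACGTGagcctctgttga
Naglu at -73: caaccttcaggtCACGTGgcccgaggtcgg
The stretches of Atp6v0d1 and Atp6v0e and the one at -45 of Mcoln1 hold the longer form TCACGTGA. The other genes with a match were Atp6v1a, Gaa, Gla and Glb1. The closest neighbours among the 36 genes were Atp6v0a1 and Naglu, on the plus strand of chromosome 11 with 6292 bases between the end of the first (101063719) and the start of the second (101070012).

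Depth was even, with 14944070 to 17709290 counts per library, and the 36 genes together took 0.903% to 0.991% of the counts of a library. One library was unlike the rest, CaP Zn0.8Mn replicate 1. Its share of counts from mitochondrial genes was 7.88% (1.82% to 2.15% in the other 5), and that from mitochondrial rRNA 0.350% (0.0361% to 0.0615%). All 10 macrophage markers on a written list passed the filter on low counts, with summed CPM (counts scaled to the size of the library, with TMM factors) of 10980 to 17180. Most of that sum was Lyz2, with 5862 CPM in this library and 9182 to 14550 CPM in the other 5. Of the 10 markers, 4 were over 1.5-fold above the mean of the other 5 libraries here and 2 over 1.5-fold below. Csf1r read 1598 CPM (318.5 to 373.6 CPM in the other 5) and Mpeg1 1298 CPM (187 to 259 CPM). T and B cell markers summed to 0 to 0.198 CPM, with all 7 under 10 counts over the 6 libraries. Markers of microglia and tissue macrophages summed to 596 CPM in this library and to between 13.7 and 27.0 CPM in the other 5, mostly from Cx3cr1, although 6 of the 8 had under 10 counts in all. Dendritic cell markers summed to 3.01 to 8.57 CPM in the other 5 libraries and were higher in this one. Osteoclast markers summed to 505 to 724 CPM in the other 5 and 360 CPM in this one, mostly from Tcirg1 (235 CPM here, 343 to 445 CPM in the other 5). The osteoclast list split, with 3 of 8 tested markers over 1.5-fold above the mean of the other 5 libraries and 5 over 1.5-fold below. Dcstamp read 26.6 CPM (5.44 to 8.06 CPM in the other 5) and Atp6v0d2 42.0 CPM (18.9 to 29.8 CPM). The part of these differences in the results below was not tested. Results for the whole set are given with and without this library, as are most of the fold changes it enters. In bulk RNA, fewer cells of a type and less RNA per cell cannot be told apart.

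Levels were compared between genes per length, as the deposited FPKM (reads scaled to gene length and library size). On this scale the saposin precursor gene Psap (mean of 6 libraries 384 FPKM) and the membrane protein gene Lamp1 (374 FPKM) were the most abundant of the 36. They were followed by Hexa (236 FPKM), the progranulin gene Grn (227 FPKM) and the V1 subunit gene Atp6v1g1 (178 FPKM). The lowest were Tfeb (5.70 FPKM), Atp6v0c (6.74), Npc1 (7.16) and Mcoln1 (7.76). The place of Atp6v0c is uncertain, since its reads may have been divided with the pseudogene Atp6v0c-ps2 (2250 counts against 19798). Psap and Lamp1 overlapped across libraries, with 293 to 445 FPKM and 325 to 408 FPKM. Among tested genes, Psap stood at the 98.9 percentile and Tfeb at the 48.9 percentile, and 35 of the 36 genes lay above the median of 5.95 FPKM. The subunits of the V1 sector work in fixed proportions within the pump, but their mean levels spanned 10.3 FPKM (Atp6v1h) to 178 FPKM (Atp6v1g1). The gene lengths behind FPKM were 1.00 to 4.76 times those of the principal transcript, which lowers FPKM unequally. This ratio was 4.76 for Atp6v1h and 1.00 for Atp6v1g1, which read 49.4 and 180 CPM per kilobase of principal transcript. On that scale the V1 genes spanned 18.9 (Atp6v1d) to 193 CPM (Atp6v1f), and Mcoln1 ranked 27 of 36. Per kilobase of principal transcript the order was similar (rank correlation 0.948 over the 36 genes, a description, since the same counts enter both scales).

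**Figure D1:**
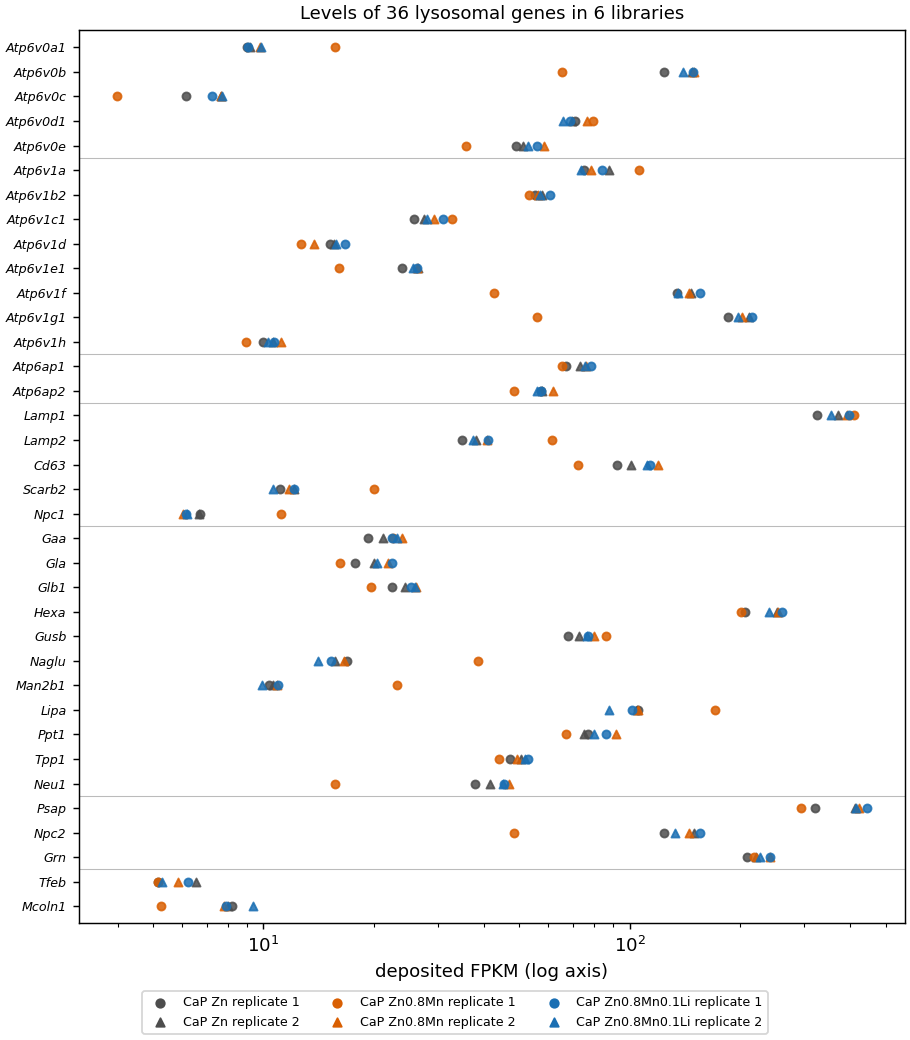
Deposited FPKM on a log axis for each of the 36 genes in each library, with colour for the alloy and shape for the replicate; grey lines part the groups of roles, from the V0 sector at the top to the regulators at the bottom. Psap and Lamp1 lie furthest right, Tfeb, Atp6v0c, Npc1 and Mcoln1 furthest left, and CaP Zn0.8Mn replicate 1 lies away from the other points in many rows.

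No member passed the test in any comparison. With all 6 libraries, edgeR's quasi-likelihood test called 0 of 36 members and 0 of 13156 genes (0%) at a Benjamini-Hochberg adjusted p under 0.05 in each of the comparisons CaP Zn0.8Mn over CaP Zn, CaP Zn0.8Mn0.1Li over CaP Zn and CaP Zn0.8Mn0.1Li over CaP Zn0.8Mn. The F test over the 3 alloys also called 0 members and 0 genes (0%), with 0 members and 1.06% of tested genes at an unadjusted p under 0.05, and DESeq2 called 0 members and 4 genes over the 3 alloys. At an unadjusted p under 0.05, edgeR gave 0 members in each of the 3 comparisons, against 1.57%, 0.22% and 2.4% of tested genes in that order. In those comparisons DESeq2 called 0 members and 1, 0 and 3 genes. At an unadjusted p under 0.05 it gave 0, 0 and 1 member, against 467, 15 and 688 of 13156 genes. By limma-voom 0 members and 0 genes were called in each. Its unadjusted p was under 0.05 for 0 members, against 152, 33 and 188 of 13156 genes. Adjusted p of the members were 0.773 to 1.00 for CaP Zn0.8Mn over CaP Zn, 1.00 throughout for CaP Zn0.8Mn0.1Li over CaP Zn, and 0.680 to 0.969 for the comparison between the alloys with manganese. With 2 libraries a group these values do not show that levels were equal. The fold changes that follow are therefore descriptions with their errors.

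Among the V0 genes, 1 library set the CaP Zn0.8Mn mean for Atp6v0a1, Atp6v0b and Atp6v0e. Atp6v0a1, a form of the large membrane subunit that targets the pump to its compartment, read 59.6 and 60.6 CPM in the CaP Zn libraries, 105 and 64.2 CPM in those of CaP Zn0.8Mn, and 59.7 and 65.2 CPM in those of CaP Zn0.8Mn0.1Li. Its log2 fold change for CaP Zn0.8Mn over CaP Zn was 0.50 ± 0.27 (SE, n = 2 per group), and 0.094 ± 0.11 without CaP Zn0.8Mn replicate 1. Other forms of that subunit, outside the 36 genes, went both ways in that library. Tcirg1 read 235 CPM there and 343 to 445 CPM in the other 5, and Atp6v0a2 read 106 CPM there and 56.5 to 60.6 CPM in the other 5. Atp6v0b, a proteolipid of the proton-carrying ring, had the highest level of the 5 per length and read 257 and 306 CPM in the CaP Zn libraries, 138 and 308 CPM in those of CaP Zn0.8Mn, and 306 and 290 CPM in those of CaP Zn0.8Mn0.1Li. Only CaP Zn0.8Mn replicate 1 was low, and the log2 fold change of -0.34 ± 0.39 turned to 0.13 ± 0.12 without it. Atp6v0e, a small membrane subunit, read 161 and 168 CPM in the CaP Zn libraries, 119 and 191 CPM in those of CaP Zn0.8Mn, and 183 and 174 CPM in those of CaP Zn0.8Mn0.1Li. Both CaP Zn0.8Mn0.1Li libraries and CaP Zn0.8Mn replicate 2 were above both CaP Zn libraries, while CaP Zn0.8Mn replicate 1 was below every other. Its log2 fold change for CaP Zn0.8Mn over CaP Zn was -0.085 ± 0.26 with 6 libraries and 0.21 ± 0.096 with 5.

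Atp6v0d1, which joins the stalk of V1 to the ring, behaved differently, since its CaP Zn0.8Mn libraries lay close together. It read 128 and 125 CPM in the CaP Zn libraries, 146 and 138 CPM in those of CaP Zn0.8Mn, and 124 and 119 CPM in those of CaP Zn0.8Mn0.1Li. The 3 groups did not overlap, with CaP Zn0.8Mn highest and CaP Zn0.8Mn0.1Li lowest, but they differed by little. Atp6v0c, the main proteolipid of the ring, is uncertain here. Its counts, at 13.8 CPM in CaP Zn0.8Mn replicate 1 a level 1.80-fold below the mean of the other 5, may have been divided with a near-identical copy. The pseudogene Atp6v0c-ps2 shares 366 of the 50-base stretches of the Atp6v0c transcript (32.3%) and holds 19798 counts against 2250 on Atp6v0c over the 6 libraries. The sum of both genes read 209 and 254 CPM in the CaP Zn libraries, 85.3 and 273 CPM in those of CaP Zn0.8Mn, and 263 and 264 CPM in those of CaP Zn0.8Mn0.1Li, so the low library was the same.

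In the V1 sector, the 2 most abundant genes per length showed the largest gap between CaP Zn0.8Mn libraries. Atp6v1g1 (ENSMUSG00000039105, plus strand of chromosome 4, 63544772 to 63550750, GRCm38 positions as in the deposited table) encodes a stalk subunit. It read 213 and 242 CPM in the CaP Zn libraries, 64.9 and 231 CPM in those of CaP Zn0.8Mn, and 246 and 226 CPM in those of CaP Zn0.8Mn0.1Li. Atp6v1f, a subunit of the central rotor, read 145 and 158 CPM in the CaP Zn libraries, 46.6 and 155 CPM in those of CaP Zn0.8Mn, and 167 and 145 CPM in those of CaP Zn0.8Mn0.1Li. Levels in CaP Zn0.8Mn replicate 1 were 3.57-fold (Atp6v1g1) and 3.30-fold (Atp6v1f) below the mean of the other 5 libraries, which overlapped one another. The log2 fold changes for CaP Zn0.8Mn over CaP Zn of -0.62 ± 0.56 and -0.58 ± 0.54 became 0.025 ± 0.11 and 0.037 ± 0.11 without that library. For CaP Zn0.8Mn0.1Li over CaP Zn0.8Mn, Atp6v1g1 gave 0.67 ± 0.56 with 6 libraries and 0.030 ± 0.11 with 5.

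Atp6v1c1, a regulatory subunit that holds V1 on V0, read 146 and 155 CPM in the CaP Zn libraries, 188 and 164 CPM in those of CaP Zn0.8Mn, and 175 and 158 CPM in those of CaP Zn0.8Mn0.1Li. Both groups with manganese lay above CaP Zn without overlap, with log2 fold changes of 0.23 ± 0.17 for CaP Zn0.8Mn (0.13 ± 0.10 with 5 libraries) and 0.15 ± 0.17 in CaP Zn0.8Mn0.1Li (0.15 ± 0.082 with 5). Atp6v1d, another rotor subunit, read 70.5 and 72.0 CPM in the CaP Zn libraries, 59.9 and 63.5 CPM in those of CaP Zn0.8Mn, and 77.4 and 73.1 CPM in those of CaP Zn0.8Mn0.1Li. The 3 groups did not overlap and the CaP Zn0.8Mn libraries agreed, so the difference of CaP Zn0.8Mn0.1Li over CaP Zn0.8Mn held its size without replicate 1 (log2 fold change 0.29 ± 0.16 with 6 libraries, 0.24 ± 0.11 with 5). Atp6v1d was the only member with an unadjusted p under 0.05 in that comparison with 5 libraries, and its adjusted p there was 0.9998 by edgeR's quasi-likelihood test. The catalytic subunit gene Atp6v1a ranged from 450 to 659 CPM, its partner Atp6v1b2 from 289 to 324 CPM, Atp6v1e1 from 68.1 to 109 CPM and Atp6v1h from 89.6 to 109 CPM. Atp6v1a was highest and Atp6v1e1 lowest in CaP Zn0.8Mn replicate 1.

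The accessory subunits varied less. Atp6ap1, which is needed for assembly of the pump, read 205 and 222 CPM in the CaP Zn libraries, 203 and 231 CPM in those of CaP Zn0.8Mn, and 239 and 231 CPM in those of CaP Zn0.8Mn0.1Li. The CaP Zn0.8Mn0.1Li libraries were above the CaP Zn libraries, by a log2 fold change of 0.14 ± 0.17. Atp6ap2, the (pro)renin receptor, read 152 and 152 CPM in the CaP Zn libraries, 130 and 162 CPM in those of CaP Zn0.8Mn, and 151 and 147 CPM in those of CaP Zn0.8Mn0.1Li. Apart from the low CaP Zn0.8Mn replicate 1, its libraries lay within 1.10-fold of each other.

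Membrane protein genes other than the pump mostly read high in CaP Zn0.8Mn replicate 1, with Cd63 as the exception. Lamp1, a heavily glycosylated protein that lines the lysosome, read 880 and 997 CPM in the CaP Zn libraries, 1121 and 1049 CPM in those of CaP Zn0.8Mn, and 1068 and 958 CPM in those of CaP Zn0.8Mn0.1Li. Lamp2, its relative with a role in autophagy, read 338 and 365 CPM in the CaP Zn libraries, 602 and 390 CPM in those of CaP Zn0.8Mn, and 395 and 359 CPM in those of CaP Zn0.8Mn0.1Li. For both genes the CaP Zn0.8Mn libraries lay above the CaP Zn libraries, but for Lamp2 the log2 fold change was 0.50 ± 0.26 with replicate 1 and 0.15 ± 0.11 without it. Scarb2, the receptor that carries glucocerebrosidase to lysosomes, read 70.6 and 76.6 CPM in the CaP Zn libraries, 129 and 74.1 CPM in those of CaP Zn0.8Mn, and 76.4 and 67.6 CPM in those of CaP Zn0.8Mn0.1Li. Npc1, the cholesterol exporter of the lysosomal membrane, read 123 CPM in CaP Zn0.8Mn replicate 1 and 64.7 to 72.7 CPM in the other 5.

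Cd63 (ENSMUSG00000025351, plus strand of chromosome 10, 128900989 to 128912822) encodes a tetraspanin of late endosomes and exosomes. It read 343 and 373 CPM in the CaP Zn libraries, 273 and 442 CPM in those of CaP Zn0.8Mn, and 420 and 413 CPM in those of CaP Zn0.8Mn0.1Li. The CaP Zn libraries were the lowest apart from CaP Zn0.8Mn replicate 1. The log2 fold change for CaP Zn0.8Mn0.1Li over CaP Zn was 0.22 ± 0.27 with 6 libraries and 0.22 ± 0.090 with 5. For CaP Zn0.8Mn over CaP Zn it was -0.00075 ± 0.27 with 6 libraries, whose sign turned under other scalings, and 0.31 ± 0.11 with 5, the highest of the 36. The processed pseudogene Cd63-ps shares 36.5% of the 50-base stretches of Cd63 and holds 2858 counts against 36884 on Cd63, so some reads may have been divided.

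Hydrolase genes went both ways in CaP Zn0.8Mn replicate 1. Naglu (ENSMUSG00000001751, plus strand of chromosome 11, 101070012 to 101077672) encodes the enzyme that removes N-acetylglucosamine from heparan sulfate. It read 45.4 and 42.0 CPM in the CaP Zn libraries, 105 and 44.3 CPM in those of CaP Zn0.8Mn, and 40.9 and 37.9 CPM in those of CaP Zn0.8Mn0.1Li. Replicate 1 was 2.49-fold above the mean of the other 5 libraries, and the log2 fold change for CaP Zn0.8Mn over CaP Zn of 0.77 ± 0.41 became 0.019 ± 0.12 without it. The CaP Zn0.8Mn0.1Li libraries were the lowest for this gene, at -0.15 ± 0.41 over CaP Zn and -0.92 ± 0.41 over CaP Zn0.8Mn (-0.17 ± 0.12 with 5 libraries). Lipa, the acid lipase that frees cholesterol from its esters, read 316 and 312 CPM in the CaP Zn libraries, 520 and 313 CPM in those of CaP Zn0.8Mn, and 303 and 263 CPM in those of CaP Zn0.8Mn0.1Li. Its CaP Zn0.8Mn0.1Li libraries were also below all others, with -0.15 ± 0.28 over CaP Zn. Man2b1, the lysosomal alpha-mannosidase, read 190 CPM in CaP Zn0.8Mn replicate 1, 2.23-fold above the mean of the other 5 libraries, which read 80.3 to 88.8 CPM.

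Neu1 (ENSMUSG00000007038, plus strand of chromosome 17, 34931253 to 34935953), the sialidase gene, deviated in the opposite direction, with 143 and 156 CPM in the CaP Zn libraries, 60.0 and 176 CPM in those of CaP Zn0.8Mn, and 170 and 169 CPM in those of CaP Zn0.8Mn0.1Li. CaP Zn0.8Mn replicate 1 lay 2.71-fold below the mean of the rest, and the 3 other libraries with manganese lay above both CaP Zn libraries. The log2 fold change for CaP Zn0.8Mn over CaP Zn was -0.34 ± 0.48 with 6 libraries and 0.23 ± 0.097 with 5, and for CaP Zn0.8Mn0.1Li over CaP Zn 0.19 ± 0.48 and 0.19 ± 0.080. Ppt1, which removes fatty acids from proteins, read 286 and 278 CPM in the CaP Zn libraries, 253 and 339 CPM in those of CaP Zn0.8Mn, and 319 and 296 CPM in those of CaP Zn0.8Mn0.1Li. It showed the same order, with log2 fold changes over CaP Zn of 0.069 ± 0.21 for CaP Zn0.8Mn (0.27 ± 0.10 with 5 libraries) and 0.12 ± 0.21 in CaP Zn0.8Mn0.1Li. Hexa, the alpha chain of beta-hexosaminidase and the most abundant hydrolase gene per length, read 417 and 506 CPM in the CaP Zn libraries, 413 and 510 CPM in those of CaP Zn0.8Mn, and 524 and 482 CPM in those of CaP Zn0.8Mn0.1Li, so that all 3 groups overlapped. Gaa, the acid glucosidase that digests glycogen, ranged from 93.5 to 115 CPM with both groups on manganese above CaP Zn (log2 fold change for CaP Zn0.8Mn over CaP Zn 0.21 ± 0.16 with 6 libraries, 0.23 ± 0.10 with 5). Gla ranged from 54.3 to 73.7 CPM, Glb1 from 60.9 to 78.9 CPM, Gusb from 313 to 402 CPM and the peptidase gene Tpp1 from 232 to 275 CPM.

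Of the helper genes, Psap (ENSMUSG00000004207, plus strand of chromosome 10, 60277627 to 60302597) encodes the precursor of the saposins. It read 889 and 1138 CPM in the CaP Zn libraries, 825 and 1160 CPM in those of CaP Zn0.8Mn, and 1227 and 1147 CPM in those of CaP Zn0.8Mn0.1Li. CaP Zn replicate 1 and CaP Zn0.8Mn replicate 1 were low and the other 4 libraries lay together. Its CaP Zn libraries differed by more than those of any other member, 1.28-fold. The log2 fold change for CaP Zn0.8Mn0.1Li over CaP Zn, 0.23 ± 0.27, was the highest of the 36, and that for CaP Zn0.8Mn over CaP Zn was -0.030 ± 0.27 (0.19 ± 0.16 with 5 libraries). Npc2, which hands cholesterol to NPC1, read 683 and 819 CPM in the CaP Zn libraries, 270 and 793 CPM in those of CaP Zn0.8Mn, and 852 and 729 CPM in those of CaP Zn0.8Mn0.1Li. Its level in CaP Zn0.8Mn replicate 1 was 2.87-fold below the mean of the rest, and the log2 fold change for CaP Zn0.8Mn over CaP Zn went from -0.50 ± 0.51 to 0.078 ± 0.15 without that library. Grn read 735 and 776 CPM in the CaP Zn libraries, 777 and 844 CPM in those of CaP Zn0.8Mn, and 842 and 797 CPM in those of CaP Zn0.8Mn0.1Li. All 4 libraries with manganese were above both CaP Zn libraries, by margins as small as that between 776 and 777 CPM.

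The regulator gene Tfeb read 29.5 and 37.4 CPM in the CaP Zn libraries, 29.9 and 33.2 CPM in those of CaP Zn0.8Mn, and 35.5 and 30.3 CPM in those of CaP Zn0.8Mn0.1Li. All 3 groups overlapped, with log2 fold changes over CaP Zn of -0.082 ± 0.21 for CaP Zn0.8Mn (-0.0059 ± 0.16 without replicate 1) and -0.024 ± 0.21 in CaP Zn0.8Mn0.1Li. TFEB is controlled mainly by phosphorylation and its place in the cell, which transcript counts do not measure. Mcoln1, a channel that lets calcium and other divalent metal ions out of the lysosome, read 62.6 and 60.8 CPM in the CaP Zn libraries, 40.6 and 59.3 CPM in those of CaP Zn0.8Mn, and 60.1 and 71.5 CPM in those of CaP Zn0.8Mn0.1Li. CaP Zn0.8Mn lay below both other groups without overlap, but its second library lay close to CaP Zn, and the log2 fold change over CaP Zn went from -0.30 ± 0.24 to -0.058 ± 0.12 without replicate 1. For CaP Zn0.8Mn0.1Li, Mcoln1 gave 0.093 ± 0.24 over CaP Zn and 0.40 ± 0.24 over CaP Zn0.8Mn (0.15 ± 0.12 with 5 libraries).

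Across the 36 genes, CaP Zn0.8Mn replicate 1 was over 1.5-fold above the mean of the other 5 libraries for 7 (Atp6v0a1, Lamp2, Scarb2, Npc1, Naglu, Man2b1 and Lipa), against 26.6% of tested genes. It was over 1.5-fold below for 8 (Atp6v0b, Atp6v0c, Atp6v1e1, Atp6v1f, Atp6v1g1, Neu1, Npc2 and Mcoln1), against 28.3% of tested genes. The share of members beyond this fold was thus not above the background in either direction. In each of the other 5 libraries, 0 of 36 genes were more than 1.5-fold from the mean of the rest, with CaP Zn0.8Mn replicate 1 left out of that mean. Of the 13156 tested genes, 260 to 387 were over 1.5-fold higher and 380 to 590 over 1.5-fold lower in these libraries. The median absolute log2 difference between replicates was 0.11 between the CaP Zn libraries, 0.48 between those of CaP Zn0.8Mn and 0.099 between those of CaP Zn0.8Mn0.1Li over the 36 genes (0.16, 0.69 and 0.13 over all tested genes).

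**Figure D2:**
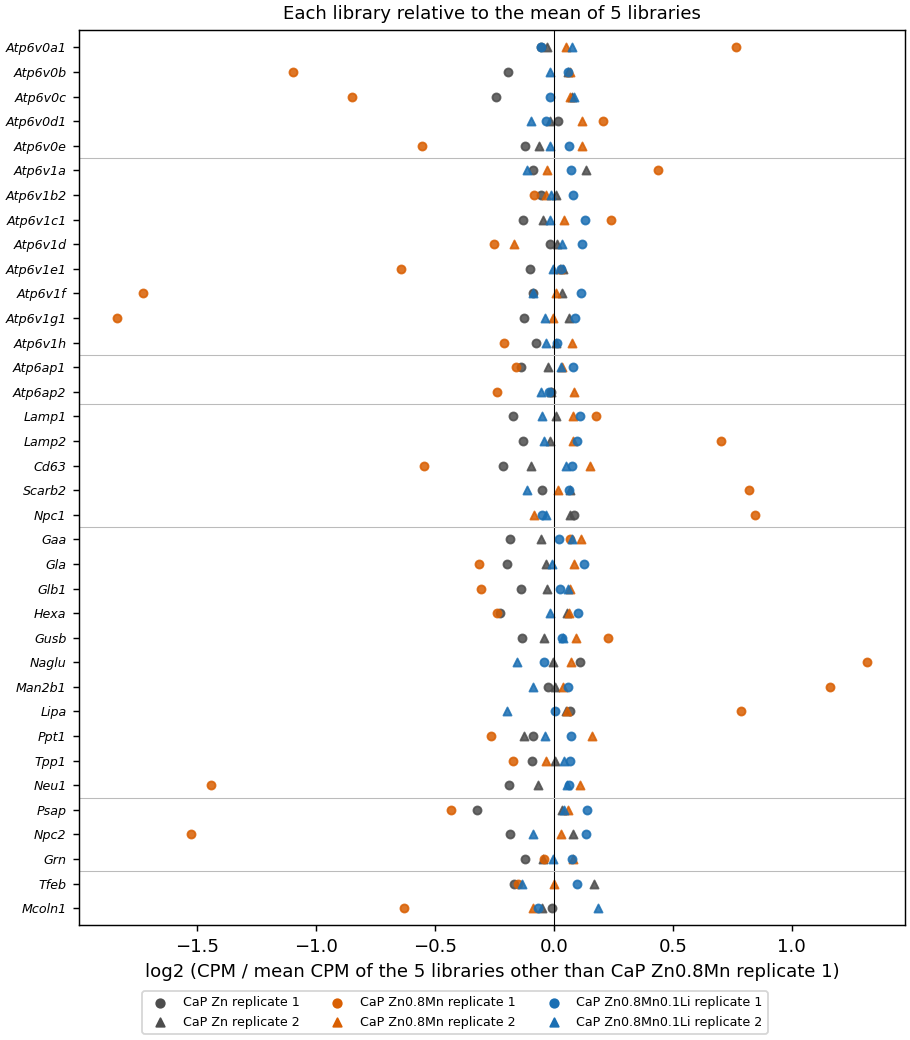
For each of the 36 genes, log2 of the CPM in each library over the mean CPM of the 5 libraries other than CaP Zn0.8Mn replicate 1 (vertical line at 0), coloured by alloy with circles for replicate 1 and triangles for replicate 2. The orange circles of CaP Zn0.8Mn replicate 1 scatter to both sides, from Atp6v1g1 at the left to Naglu at the right, and the points of the other 5 libraries stay close to the line.

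In that library the direction went in part with transcript length. The 8 genes over 1.5-fold lower had a median principal transcript of 1247.5 bases (703 to 3299) and the 7 over 1.5-fold higher one of 3822 bases (2560 to 5224), against 2435 bases for all 36. Over the 36 genes, the log2 deviation correlated with log2 length at r = 0.647 (Spearman's rho 0.580), and over 10968 tested genes with a principal transcript at r = 0.439 (rho 0.461). These are descriptions across genes, which share a library and are not independent replicates. The 2 members of up to 1000 bases, Atp6v0b and Atp6v1f, had a median of -1.41, against -1.23 for the 667 tested genes of that length. The 4 members over 4000 bases, Atp6v0a1, Atp6v1a, Scarb2 and Npc1, had a median of 0.79, against 0.48 for 3422 tested genes. Members of 1000 to 1500 bases had a median of -0.74 (-0.66 in tested genes) and those of 1500 to 2000 bases -0.016 (-0.34). The 17 members of 2000 to 3000 bases had a median of -0.16, against -0.086 in tested genes. The 7 members of 3000 to 4000 bases had -0.17, against 0.17 in tested genes, so the members did not rise between these ranges. Neu1 (2474 bases) and Npc2 (3299 bases) were low and Naglu (2560 bases) was high beside other genes of their length, whose medians were -0.086 (2000 to 3000 bases) and 0.17 (3000 to 4000 bases). Others also lay apart from genes of their length, among them Man2b1 (3822 bases, 1.16), Lipa (2969 bases, 0.79) and Atp6v1g1 (1135 bases, -1.83). In CaP Zn replicate 1 the correlation with length was 0.295 over the members and 0.167 over tested genes, and in CaP Zn0.8Mn replicate 2 it was -0.249 and -0.110. The part of length in the differences between groups was not tested.

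**Figure D3:**
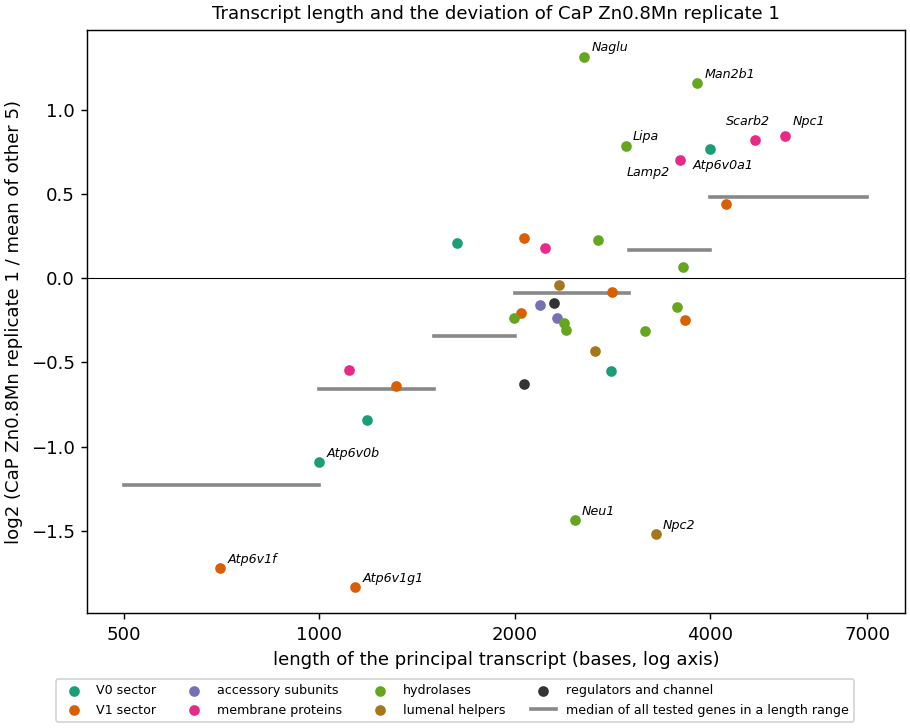
Length of the principal transcript (bases, log axis) against the log2 ratio of CaP Zn0.8Mn replicate 1 to the mean of the other 5 libraries, 1 point per gene, coloured by role; grey bars give the median of all tested genes in each length range. Short transcripts such as Atp6v1f and Atp6v0b lie below 0 and long ones such as Scarb2 and Npc1 above it. Neu1, Npc2, Naglu, Man2b1, Lipa and Atp6v1g1 are among the points away from the grey bars.

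Taken over the whole set with 6 libraries, CaP Zn0.8Mn showed no common shift from CaP Zn, with 17 of 36 genes higher, 19 lower and a median log2 fold change of -0.00076 (0.0048 over all tested genes, of which 50.5% were above 0). The groups did not overlap for 9 genes that were higher (12.5% of tested genes) and 2 that were lower (12.8% of tested genes). Without CaP Zn0.8Mn replicate 1, 29 of the 36 genes were higher in the remaining CaP Zn0.8Mn library, where 48.2% of tested genes had a log2 fold change above 0. The median was 0.11 (-0.0084 over all tested genes), 21 genes were above both CaP Zn libraries (32% of tested genes) and 3 were below both (32.8%). By role, the remaining library was higher for 5 of 5 genes of the V0 sector (median log2 fold change 0.13), 5 of 8 of V1 (0.031), both accessory subunits, 4 of 5 membrane proteins (0.15), 10 of 11 hydrolases (0.15), 3 of 3 helpers (0.16) and neither Tfeb nor Mcoln1. This fit assumes that the lone library varies like the other groups. Cd63, Ppt1, Neu1, Gaa and Atp6v0e had an unadjusted p under 0.05 in it, 5 of 36 against 4.33% of tested genes. Of the members 0 were called at an adjusted p under 0.05, with 0.967 as their lowest adjusted p, while 2 of 13156 genes were called (0.0152%).

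For CaP Zn0.8Mn0.1Li over CaP Zn, 27 of 36 genes were higher and 9 lower, with a median log2 fold change of 0.088 (4.7e-05 over all tested genes, of which 50% were above 0). The groups did not overlap for 14 genes that were higher (16.7% of tested genes), among them Cd63, Psap, Grn, Atp6ap1 and 7 of the 11 hydrolase genes. They did not overlap for 5 that were lower (16.8% of tested genes), namely Atp6v0d1, Atp6ap2, Npc1, Naglu and Lipa. By role, the counts of genes with a value above 0 were 4 of 5 in the V0 sector (median 0.082), 7 of 8 in V1 (0.049), 1 of 2 accessory subunits, 3 of 5 membrane proteins (0.10), 8 of 11 hydrolases (0.12), 3 of 3 helpers (0.12) and 1 of the pair Tfeb and Mcoln1. Without CaP Zn0.8Mn replicate 1 the counts over all 36 were again 27 and 9, where 50% of tested genes were above 0. In this fit 0 members and 0 genes (0%) were called by edgeR, and Cd63 and Neu1 had an unadjusted p under 0.05, 2 of 36 against 5.02% of tested genes. The comparisons over CaP Zn share the CaP Zn libraries. In CaP Zn replicate 1, 32 of 36 genes lay below the mean of the other libraries (again without CaP Zn0.8Mn replicate 1), with a median log2 deviation of -0.15 (0.0012 over all tested genes). Against CaP Zn replicate 2 alone, 23 of 36 genes were higher in CaP Zn0.8Mn replicate 2, 24 in CaP Zn0.8Mn0.1Li replicate 1 and 17 in CaP Zn0.8Mn0.1Li replicate 2. Splits of this size also occurred between libraries of 1 alloy, with 30 of 36 genes higher in CaP Zn replicate 2 than in replicate 1 and 29 of 36 higher in CaP Zn0.8Mn0.1Li replicate 1 than in replicate 2. In the fit without CaP Zn replicate 1, CaP Zn0.8Mn0.1Li over CaP Zn had 19 of 36 genes higher and a median of 0.024, and without CaP Zn0.8Mn0.1Li replicate 1 it had 23 and 0.031.

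For CaP Zn0.8Mn0.1Li over CaP Zn0.8Mn, 23 genes were higher and 13 lower, with a median of 0.076 (-0.0019 over all tested genes, of which 49.9% were above 0). The groups did not overlap for 4 genes that were higher, Atp6v1b2, Atp6v1d, Tpp1 and Mcoln1 (17.1% of tested genes), and 4 that were lower, Atp6v0d1, Gusb, Naglu and Lipa (17.5%). Without CaP Zn0.8Mn replicate 1 the direction turned, to 11 higher and 25 lower with a median of -0.036, where 49.6% of tested genes were above 0. Then 0 members were called by edgeR and 2 genes were (0.0152%), and 1 member had an unadjusted p under 0.05 against 3.16% of tested genes.

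**Figure D4:**
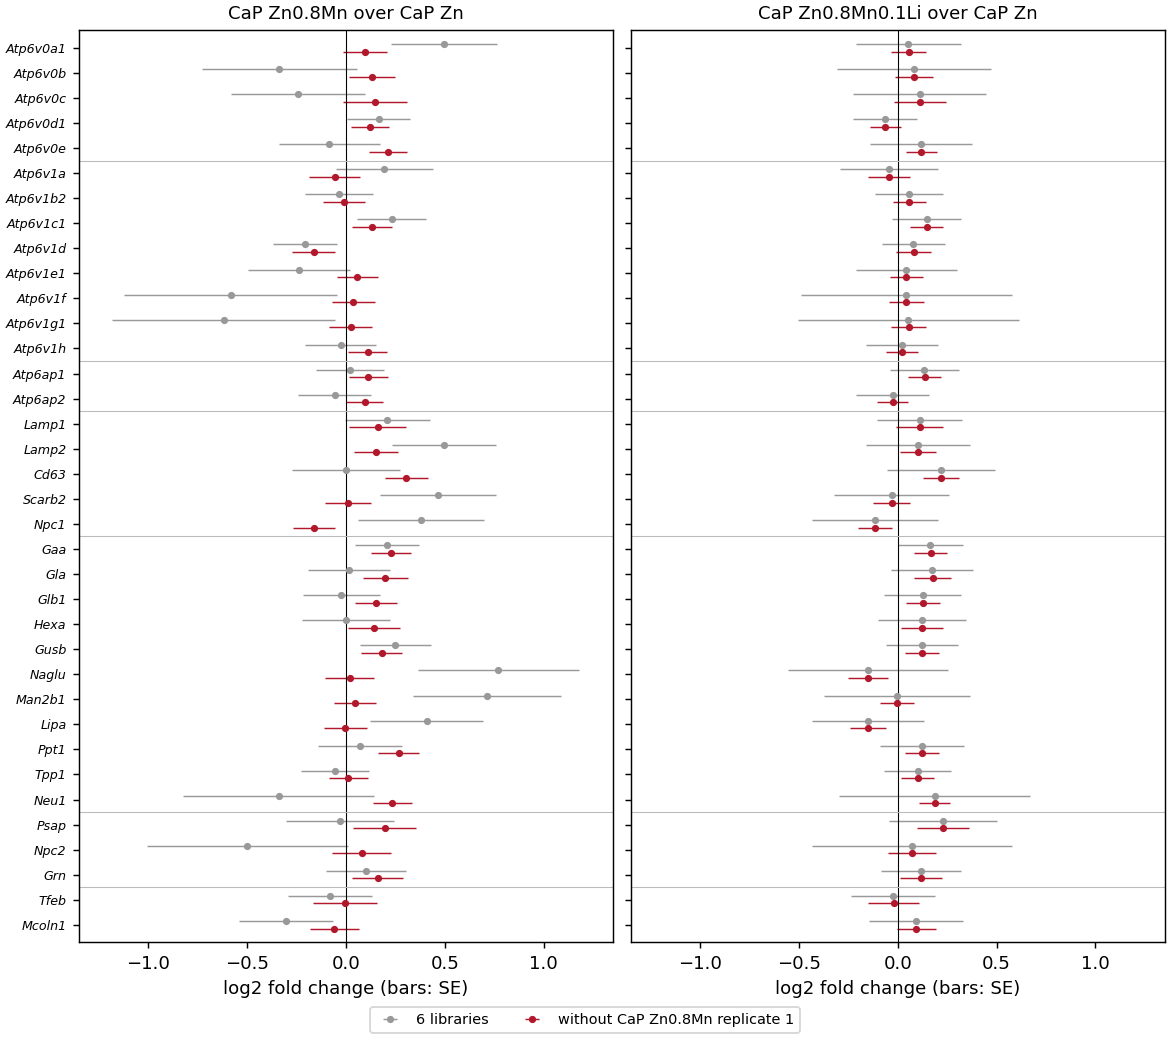
Log2 fold changes of the 36 genes with their standard errors, for CaP Zn0.8Mn over CaP Zn (left) and CaP Zn0.8Mn0.1Li over CaP Zn (right), with 6 libraries (grey) and without CaP Zn0.8Mn replicate 1 (red). On the left the grey points spread from Atp6v1g1 at -0.62 to Naglu at 0.77 and the red points lie between Atp6v1d at -0.16 and Cd63 at 0.31; on the right both sets lie within 0.23 of 0.

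The balance of pump and hydrolase genes depended on how it was summarised. Summed FPKM of the 15 pump subunits over that of the 11 hydrolases was 1.44 and 1.45 in the CaP Zn libraries, 0.910 and 1.38 in those of CaP Zn0.8Mn, and 1.43 and 1.41 in those of CaP Zn0.8Mn0.1Li. CaP Zn0.8Mn replicate 1, in which Atp6v1g1, Atp6v1f and Atp6v0b were low, was the only one below 1. The ratio of the median FPKM of these classes was 1.45 and 1.39 in the CaP Zn libraries, 1.11 and 1.24 in those of CaP Zn0.8Mn, and 1.26 and 1.24 in those of CaP Zn0.8Mn0.1Li. By sums, CaP Zn0.8Mn replicate 1 lay apart and the other 5 libraries together, and by medians the CaP Zn libraries also lay above the other 4. The median log2 fold change of pump genes minus that of hydrolase genes was -0.13 for CaP Zn0.8Mn over CaP Zn (-0.056 without that library), -0.069 for CaP Zn0.8Mn0.1Li over CaP Zn and 0.061 for CaP Zn0.8Mn0.1Li over CaP Zn0.8Mn. Genes with and without CACGTG in their promoter window were set side by side. Their median log2 fold changes for CaP Zn0.8Mn over CaP Zn were 0.089 (6 of 10 genes higher) with the motif and -0.00077 (9 of 21 higher) without it in 6 libraries. Without CaP Zn0.8Mn replicate 1 these became 0.14 (8 of 10 higher) and 0.095 (18 of 21 higher). For CaP Zn0.8Mn0.1Li over CaP Zn0.8Mn they were 0.055 and 0.12 with 6 libraries and -0.049 and -0.040 with 5, and for CaP Zn0.8Mn0.1Li over CaP Zn with 6 libraries 0.10 (7 higher) and 0.10 (16 higher). The difference between these groups of genes was not tested.

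Other genes of the lysosome were read from a list of 70 that holds further pump subunits, transporters, hydrolases, sorting receptors and nutrient-sensing proteins, of which 62 were tested. By edgeR 0 of them were called in each of the 3 comparisons with 6 libraries (0, 0 and 1 at an unadjusted p under 0.05), and DESeq2 and limma-voom also called 0. Their median log2 fold changes over CaP Zn were 0.092 for CaP Zn0.8Mn (37 higher, 25 lower, beside 50.5% of all tested genes above 0) and 0.066 in CaP Zn0.8Mn0.1Li (42 higher, 20 lower, beside 50%). Without CaP Zn0.8Mn replicate 1 the former was 0.046, again with 37 higher and 25 lower (48.2% of all tested genes above 0). Sgsh, the heparan sulfamidase that works in the same pathway as Naglu, read 7.31 and 7.87 CPM in the CaP Zn libraries, 42.0 and 7.50 CPM in those of CaP Zn0.8Mn, and 5.62 and 7.22 CPM in those of CaP Zn0.8Mn0.1Li. Its log2 fold change for CaP Zn0.8Mn over CaP Zn, 1.71 ± 0.77, became -0.016 ± 0.25 without replicate 1. The sorting receptor gene Sort1 read 17.6 CPM in that library and 4.53 to 6.46 CPM in the rest, with a log2 fold change for CaP Zn0.8Mn over CaP Zn of 1.04 ± 0.51 (0.14 ± 0.27 without replicate 1). For CaP Zn0.8Mn0.1Li over CaP Zn, the largest differences among genes with a mean of at least 5 CPM were those of Pld3, a nuclease of the lysosome, at 0.30 ± 0.27 (107 and 132 CPM in the CaP Zn libraries, 152 and 141 CPM in those of CaP Zn0.8Mn0.1Li), and of Lamtor4, a subunit of the complex that anchors nutrient signalling to lysosomes, at 0.30 ± 0.60 (35.3 and 38.6 CPM in the CaP Zn libraries, 11.8 and 47.4 CPM in those of CaP Zn0.8Mn, and 45.5 and 45.5 CPM in those of CaP Zn0.8Mn0.1Li).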

How the data were processed

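Polyadenylated RNA was sequenced from 6 libraries of RAW 264.7 cells, 2 on each of 3 alloys, grouped by the treatment label. The authors deposited whole-number read counts, which were used for all tests, and FPKM values, which were used for levels between genes. The file headers and labels name no aligner or counting program (not given in the sources used here). Per the submitters' processing notes the build is mm9, but 98.3% of the genes matched to GENCODE M21 (34 of the 36 members) have GRCm38 positions in the deposited tables, and the files' positions are printed. The tables hold 0 columns of other samples.

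Counts were tested with edgeR 4.0.16 in R 4.3.3 (quasi-likelihood, robust, TMM factors, filterByExpr, group means over 6 libraries, 3 residual degrees of freedom, two-sided, Benjamini-Hochberg over 13156 genes, threshold 0.05). Leaving out 1 library kept these genes and left 2 degrees of freedom. A log2 fold change above 0 means a higher level in the group named first. CPM deviations used an offset of 0.1. Lengths are those of the principal transcript in GENCODE M21. The 36 members and the other gene lists were chosen with earlier results of these data known. Values in all libraries are printed for the 2 members of highest FPKM and those of largest log2 fold change in each role, with 6 libraries and without CaP Zn0.8Mn replicate 1, and for Tfeb and Mcoln1. Npc1, Man2b1 and Gaa were added after their values were seen. The scripts were checked on simulated counts, whose spread was smaller than that of CaP Zn0.8Mn here, so they say nothing of the power in these libraries. Alternatives were RLE factors, library totals, DESeq2 1.42.0, limma 3.58.1 (voom, and log2(FPKM + 1) or log2(FPKM + 0.1) for genes of mean FPKM at least 1), no filter beyond 10 counts, a mean count of at least 100, mitochondrial genes left out, the replicate block and each library left out. Libraries of a group differed by more than sampling noise (chi-square per gene 11.7, 278 and 6.16). A floor of 3 counts is 0.169 to 0.201 CPM and reflects counting error alone (no molecular identifiers are described).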

Additional observations from a re-analysis of the deposited data

How the results depend on the processing

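No member was called under any alternative that kept all 6 libraries. DESeq2 called 1 gene for CaP Zn0.8Mn over CaP Zn, 3 for CaP Zn0.8Mn0.1Li over CaP Zn0.8Mn and 4 over the 3 alloys, where edgeR called 0. The log2 fold change of Cd63 for CaP Zn0.8Mn over CaP Zn, -0.00075, turned to 0.0040 with RLE factors, 0.0040 with DESeq2 and 0.0064 with a mean count of at least 100. The other fold changes printed for members kept their sign under these settings, and the cause was not tested.

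Whether replicate numbers pair the samples cannot be told from these values. Same-numbered deviations correlated at 0.254, -0.153 and -0.0939. With 2 libraries a group, the deviations within a group mirror each other. Pairs with different numbers therefore gave the same sizes with the opposite sign. With the replicate block, 0 genes and 0 members were called and the medians of the members were -0.014, 0.097 and 0.079, so the block changed no call.

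With each library left out in turn, CaP Zn0.8Mn over CaP Zn gave 0 to 7808 genes and 0 to 21 members called, medians of the members from -0.17 to 0.11 and pump-minus-hydrolase differences from -0.20 to -0.056. CaP Zn0.8Mn0.1Li over CaP Zn gave 0 genes and 0 members, with medians from 0.024 to 0.15 and pump-minus-hydrolase differences from -0.094 to -0.017. CaP Zn0.8Mn0.1Li over CaP Zn0.8Mn gave 0 to 8096 genes, 0 to 24 members, medians from -0.036 to 0.21 and pump-minus-hydrolase differences from -0.013 to 0.091. The F test over the 3 alloys gave 0 to 7603 genes and 0 to 23 members. The high counts all come from leaving out CaP Zn0.8Mn replicate 2. This leaves the library that stands apart as the whole group, and the high counts describe that library. They are out of 13156 tested genes and 36 members. In each of them most tested genes were called as well as most members. Whether the members differed from other genes there was not tested.

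Leaving out single libraries turned the sign of some of the log2 fold changes, given here from lowest to highest. For CaP Zn0.8Mn over CaP Zn these were Atp6v1g1 (-1.82 to 0.025), Atp6v1f (-1.71 to 0.037), Atp6v0b (-1.04 to 0.13), Atp6v0e (-0.47 to 0.21), Npc2 (-1.49 to 0.078), Neu1 (-1.32 to 0.23), Cd63 (-0.40 to 0.31) and Psap (-0.31 to 0.19), each lowest without CaP Zn0.8Mn replicate 2 and highest without CaP Zn0.8Mn replicate 1. Ppt1 (-0.17 to 0.27) had the same order. Cd63 (0.060) and Psap (0.16) also turned without CaP Zn replicate 2, as did Tfeb, which went from -0.25 without CaP Zn replicate 1 to 0.097. For CaP Zn0.8Mn0.1Li over CaP Zn, Tfeb went from -0.19 without CaP Zn replicate 1 to 0.16 without CaP Zn replicate 2, with 0.084 without CaP Zn0.8Mn0.1Li replicate 2, and Mcoln1 from -0.040 without CaP Zn0.8Mn0.1Li replicate 2 to 0.20 without CaP Zn0.8Mn0.1Li replicate 1.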

Other observations

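The other lists of markers were at low levels in every library. Markers of fibroblasts and osteoblasts summed to 7.53 CPM in CaP Zn0.8Mn replicate 1 and 13.6 to 17.4 CPM in the other 5 libraries, with 8 of the 10 under 10 counts in all. Runx2 made up most of it, with 13.4 to 17.1 CPM in the other 5 and 7.14 CPM in CaP Zn0.8Mn replicate 1. Markers of neutrophils summed to 0.264 CPM there and 0.860 to 2.17 CPM in the other 5. Markers of epithelium and endothelium summed to 0.132 CPM there, within the range of the other 5 (0.128 to 0.453 CPM).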
